A study of Mus musculus with 30 samples.

Results

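The genes of the aminoacyl-tRNA synthetases were followed in liver RNAseq of 30 male C57BL/6 mice. Protein coding genes were taken by symbol, a one-letter amino acid code before "ars" with or without a final 1 or 2, with Farsa and Farsb added. This gave 37 of the 55487 genes in the count table, of which 21936 are protein coding. The 20 symbols without a final 2 (Mars1 among them) stand for the cytosolic enzymes and the 17 symbols ending in 2 for the mitochondrial ones. The labels give an age of 8 weeks, which the paper's methods state for the mice that were put on the diets. The mice received 1 of 2 diets for 6 weeks, with an antibody injected 2 times per week between weeks 4 and 6. The groups were MCD anti-DBI (n = 10), MCD IgG (n = 10), RCD anti-DBI (n = 5) and RCD IgG (n = 5). MCD is a methionine and choline deficient diet and RCD a regular chow. Anti-DBI is a monoclonal antibody that neutralizes ACBP/DBI, and IgG is its isotype control. All mice were injected with an antibody, and no group received MCD with methionine and choline added back, so that this deficiency cannot be told apart from other differences between the diets.

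A synthetase joins an amino acid to its tRNAs and so provides the substrate of the ribosome. All of them, the mitochondrial enzymes included, are encoded in the nucleus. Gars and Kars each give rise to a cytosolic and a mitochondrial enzyme from 1 gene, and mitochondria make glutaminyl-tRNA from a tRNA that Ears2 has charged with glutamate. In mammals, several cytosolic enzymes sit together in the multisynthetase complex. When amino acids run short, uncharged tRNAs activate the kinase GCN2 and the transcription factor ATF4 is translated, which is known to bind the C/EBP-ATF response element in front of amino acid genes, several cytosolic synthetases among them.

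The core of that element, TGATGNAA, was searched on both strands in the RefSeq promoters of GRCm38.p6, from 250 bases before to 50 bases after the start of transcription. A promoter was matched for 13 of the 20 cytosolic genes and for 15 of the 17 mitochondrial genes. Among those without an entry were Cars, Hars, Lars, Nars, Rars, Vars, Wars and Pars2. The letters were found in 5 of the 13 cytosolic genes (38.5%) and in 0 of the 15 mitochondrial genes, against 1304 of 32851 promoters (3.97%) and 1219 of 27025 genes (4.51%) in all. The 5 genes were Aars, Gars, Iars, Tars and Yars. The match began 112 bases before the start in Aars, 30 in Gars and 15 in Tars, and 7 bases after it in Iars and 3 in Yars, and Aars had another match 9 bases after the start. The 3 matches before the start, in Gars, Tars and Aars, are shown. The count table places the start of Aars at chr8:111033144, so that by its coordinates the Aars window lies inside the gene. The capitals mark the match, here read on the opposite strand of the gene in each case.
Gars, chr6:55037951-55037998, plus strand: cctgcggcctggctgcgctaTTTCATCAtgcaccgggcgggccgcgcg
Tars, chr15:11399659-11399693, minus strand: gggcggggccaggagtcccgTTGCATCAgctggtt
Aars, chr8:111033710-111033757, plus strand: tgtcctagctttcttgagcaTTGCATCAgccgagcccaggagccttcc
A match describes these letters in this window only and says nothing of binding in these livers.

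Total counts were 8.36 to 21.7 M per library (1 M is 1e+06 counts), and all 37 genes passed the filter on low counts in every comparison. Their totals over the 30 livers ran from 1220 counts for Pars2 to 107527 for Aars. Levels are given as CPM, counts per 1e+06 counts of the library after TMM scaling. Compared per kb of coding length, because longer mRNAs gather more reads, the median level in RCD IgG livers was 20.7 CPM per kb for the cytosolic genes (range 9.17 to 84.9) and 8.52 for the mitochondrial genes (1.44 to 30.2). Aars and Nars, which charge alanine and asparagine, stood highest at 84.9 and 67.0 CPM per kb.

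Some livers stood apart in the cytosolic genes, MCD IgG 2 in the most of them. MCD IgG 2 had the lowest level of its group in 18 of the 20 genes, and its summed cytosolic level was 1061 CPM in a group whose median was 1461 CPM. That library had a total of 11.6 M counts. It was also the lowest of its 10 in the summed ATF4 list (896 CPM) and the highest in the hepatocyte list (129010 CPM). MCD anti-DBI 9 and MCD anti-DBI 6 had summed cytosolic levels of 1116 and 1134 CPM, in a group whose median was 1437 CPM. They were the lowest of that group in 8 and 6 of the 20 genes. RCD anti-DBI 1 had the highest level of its group in 14 of the 20 cytosolic genes. Within a group, the coefficient of variation of a cytosolic gene had a median of 14.8% in MCD anti-DBI, 13.7% in MCD IgG, 7.81% in RCD anti-DBI and 7.75% in RCD IgG. For mitochondrial genes these medians were 14.6%, 13.1%, 12.6% and 11.3% in the same groups.

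**Figure D1:**
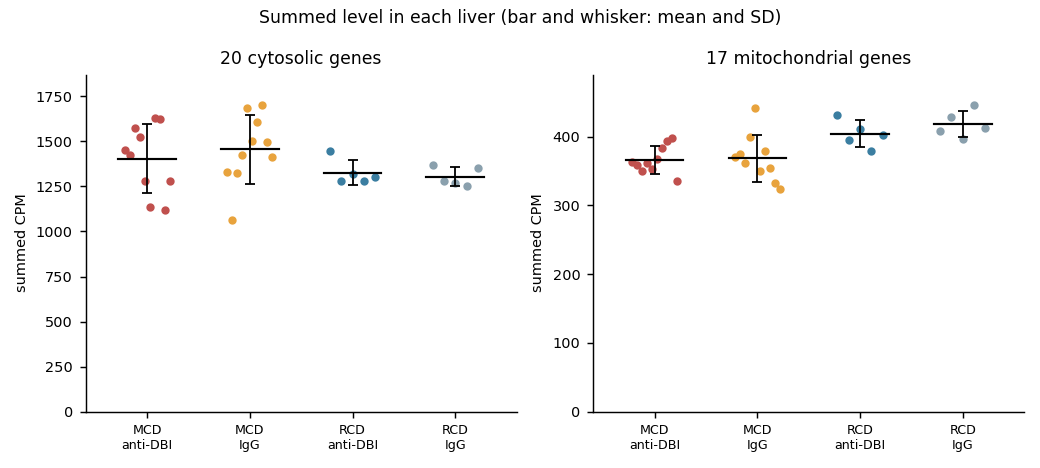
Summed level (CPM) of the 20 cytosolic genes (left) and the 17 mitochondrial genes (right) in each of the 30 livers, by group, with mean and SD. The cytosolic sums of both MCD groups spread from below to above the range of the RCD groups, with MCD IgG 2 lowest at 1061 CPM.

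Summed over all 20 genes, the cytosolic level averaged 1403 ± 192 CPM in MCD anti-DBI (SD, n = 10), 1455 ± 192 CPM in MCD IgG (n = 10), 1326 ± 68.9 CPM in RCD anti-DBI (n = 5) and 1304 ± 51.7 CPM in RCD IgG (n = 5). All 4 groups overlapped in this sum. The mitochondrial sum was 366 ± 19.9 CPM, 369 ± 34 CPM, 404 ± 19.4 CPM and 418 ± 19 CPM in these groups. Sums are given as a description, with no test.

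The effect of the MCD diet was measured by comparing MCD IgG with RCD IgG livers. The cytosolic synthetases moved in both directions, mostly upwards: 10 of 20 genes rose, 4 fell and 6 did not pass the test. Gars and Sars, which charge glycine and serine, rose most, with about 2.05 and 1.88 times the RCD IgG level. Tars and Mars1, which charge threonine and methionine, fell most. Of all 13672 genes tested in this comparison, 57.1% passed at an adjusted p of 0.05, 29.9% higher and 27.2% lower. The median log2 fold change was 0.25 over the cytosolic genes and 0.03 over all genes tested.

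Gars (chr6:55038007-55079500) ran from 65.1 CPM through a median of 87.9 to 101.7 CPM in MCD IgG livers, against 41.3, 43.1, 45.7, 37.7 and 45.4 CPM in the 5 RCD IgG livers. Every MCD IgG liver was above every RCD IgG liver. The log2 fold change was 1.04 ± 0.09 (SE, edgeR's quasi-likelihood test, adjusted p = 2.86e-08). Sars (chr3:108424865-108445209) ran from 86.3 through 109 to 129 CPM in MCD IgG livers, against 52.1, 51.9, 64.3, 60.7 and 59.1 CPM in RCD IgG livers. These groups did not overlap either, and the log2 fold change was 0.91 ± 0.09 (adjusted p = 1.88e-07).

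Rars, the arginine enzyme (chr11:35808381-35834506), had 31.9 to 49.6 CPM in MCD IgG livers (median 44.5), against 34.5, 28.5, 27.3, 29.2 and 30.4 CPM in RCD IgG livers. The only MCD IgG liver within the RCD IgG range was MCD IgG 2, and the log2 fold change was 0.54 ± 0.09 (adjusted p = 4.90e-05). Hars, the histidine enzyme (chr18:36766528-36783205), had 36.4 to 56.4 CPM in MCD IgG livers (median 45.8), against 29.5, 33.8, 31.3, 34 and 34.1 CPM in RCD IgG livers. All MCD IgG livers were higher, with a log2 fold change of 0.52 ± 0.09 (adjusted p = 0.000132). The other cytosolic genes that rose had smaller log2 fold changes, from 0.26 to 0.44. These were Eprs (0.44), which charges both glutamate and proline, Nars (0.39), Vars (0.35) for valine, Kars (0.33) for lysine, Wars (0.28) for tryptophan and Lars (0.26) for leucine.

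Tars (chr15:11382301-11399665) had 51.6 to 97.6 CPM in MCD IgG livers (median 69.1), against 132, 110, 104, 99.7 and 122 CPM in RCD IgG livers. Every MCD IgG liver was lower, although the highest, MCD IgG 5, came close to the lowest RCD IgG liver, and the log2 fold change was -0.67 ± 0.12 (adjusted p = 0.000150). Mars1 (chr10:127296221-127311786), the enzyme for the amino acid that MCD lacks, had 39.4 to 64.0 CPM in MCD IgG livers (median 48.9), against 69.4, 68.7, 80.8, 66.6 and 72.6 CPM in RCD IgG livers. These groups did not overlap, with a log2 fold change of -0.51 ± 0.10 (adjusted p = 0.000235). Its 3′ end shares 68 bases with Ddit3 on the opposite strand. Ddit3, which encodes the stress factor CHOP, rose in the same comparison with a log2 fold change of 1.88.

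Dars, the aspartate enzyme (chr1:128363707-128417368), had 55.2 to 67.8 CPM in MCD IgG livers (median 63.2), against 70.7, 91.4, 69.4, 81.7 and 85.5 CPM in RCD IgG livers. The groups did not overlap, and the log2 fold change was -0.34 ± 0.07 (adjusted p = 0.000557). Qars, the glutamine enzyme (chr9:108507706-108515941), had 40.4 to 49.9 CPM in MCD IgG livers (median 44.6), against 53.8, 49.1, 49.4, 48.1 and 51 CPM in RCD IgG livers. Its groups overlapped, and its log2 fold change of -0.17 ± 0.06 (adjusted p = 0.0204) was the smallest of the 14. The 6 cytosolic genes that did not pass had log2 fold changes of 0.25 (Yars), 0.17 (Iars), 0.16 (Farsa), -0.10 (Farsb), -0.11 (Cars) and -0.05 (Aars). Farsa and Farsb encode the α and β subunits of the phenylalanine enzyme. Aars, the most abundant of the 37, had 153 to 297 CPM in MCD IgG livers (median 244) and 230 to 274 CPM in RCD IgG livers.

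**Figure D2:**
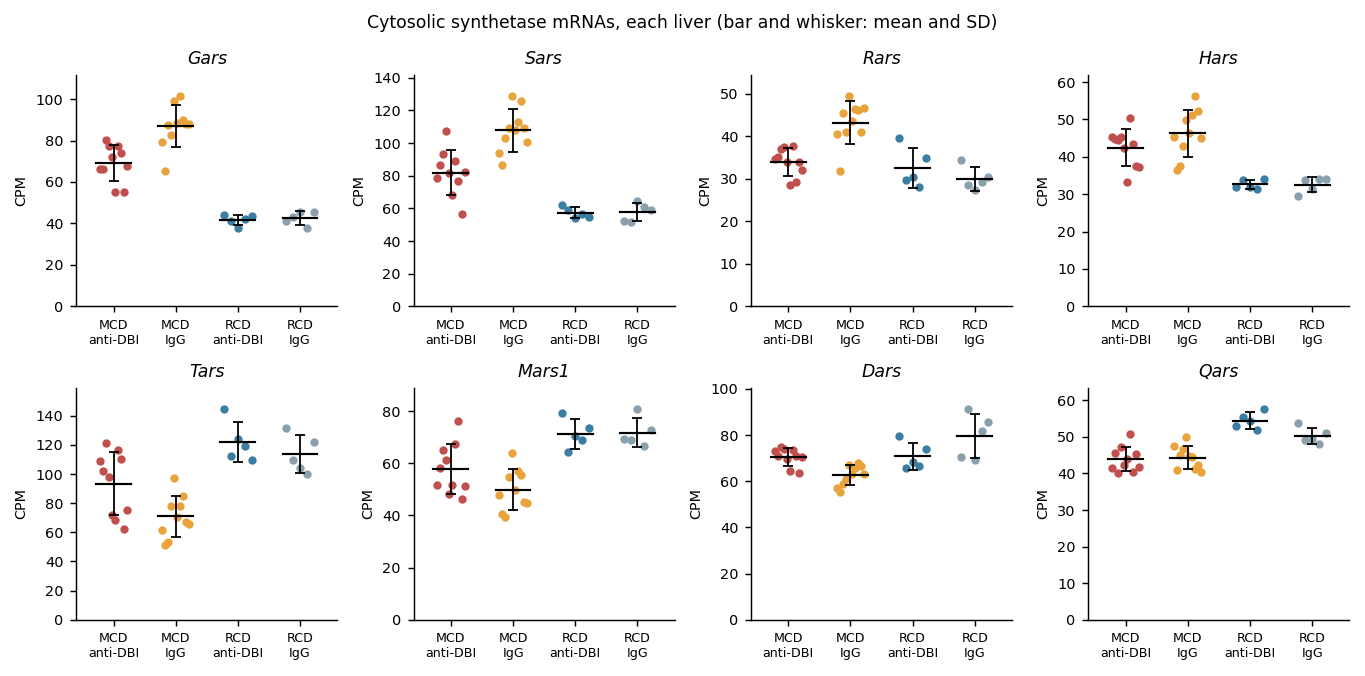
Level (CPM) of 8 cytosolic synthetase mRNAs in each of the 30 livers, by group, with mean and SD. Gars, Sars and Hars were higher in every MCD IgG than in every RCD IgG liver, whereas Tars, Mars1 and Dars were lower in every MCD IgG liver.

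Among the 5 cytosolic genes with the ATF4 core letters, Gars rose and Tars fell, and Aars, Iars and Yars did not pass. The 8 genes of enzymes in the multisynthetase complex divided as well: Eprs, Rars, Kars and Lars rose, Mars1, Dars and Qars fell and Iars did not pass, with a median log2 fold change of 0.21. The 3 scaffold genes of that complex, Aimp1, Aimp2 and Eef1e1, had log2 fold changes of 0.19, 0.29 and 0.33 and did not pass (adjusted p = 0.0597, 0.0600 and 0.105). Of the class I enzymes, 4 of 9 rose and 2 fell, and of the class II enzymes, 5 of 10 rose and 2 fell. Eprs belongs to both classes and is left out of these counts.

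Of the 17 mitochondrial synthetase genes 5 fell, 3 rose and 9 did not pass the test in MCD IgG against RCD IgG, with a median log2 fold change of -0.06. The 5 that fell lie near the 27.2% of all genes that were lower, and the 8 called in all lie below the 57.1% of all genes that passed. The 4 with the smallest adjusted p, Fars2, Nars2, Hars2 and Vars2, were all lower in each MCD IgG liver than in any RCD IgG liver. Together, 6 cytosolic and 4 mitochondrial genes had groups that did not overlap, and 27.2% of all genes tested did so.

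Fars2, the phenylalanine enzyme (chr13:36117412-36726280), had 19 to 25 CPM in MCD IgG livers (median 21.9), against 27.8, 29.98, 26.8, 33.3 and 33.9 CPM in RCD IgG livers. The log2 fold change was -0.48 ± 0.08 (adjusted p = 4.87e-05). Fars2 shares 920 bases on the opposite strand with Nrn1, whose counts were 103836 in total against 10353 for Fars2. Nars2, the asparagine enzyme (chr7:96951505-97064758), had 10.1 to 16.6 CPM in MCD IgG livers (median 13.5), against 21.4, 20.7, 18.6, 21.8 and 17.5 CPM in RCD IgG livers. It had the largest drop of the mitochondrial genes, with a log2 fold change of -0.57 ± 0.10 (adjusted p = 6.24e-05). Hars2, the histidine enzyme (chr18:36783008-36792562), had 16 to 20.6 CPM in MCD IgG livers (median 18.7), against 26.5, 26.5, 25.3, 24.6 and 22.4 CPM in RCD IgG livers, a log2 fold change of -0.40 ± 0.07 (adjusted p = 9.25e-05). Hars2 and Hars lie head to head on opposite strands and share 198 bases. The cytosolic gene of this pair rose and the mitochondrial one fell, and reads within the shared bases cannot be assigned without strand.

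Vars2, the valine enzyme, fell with a log2 fold change of -0.54 ± 0.10 (adjusted p = 0.000128), and Aars2 fell by 0.24 on the log2 scale (adjusted p = 0.0158). In the other direction, Pars2, the proline enzyme (chr4:106651069-106655282), had 2.44 to 4.27 CPM in MCD IgG livers (median 3.56), against 1.15, 1.70, 2.09, 2.40 and 2.90 CPM in RCD IgG livers. Its log2 fold change was 0.77 ± 0.20 (adjusted p = 0.00306), on 9 to 76 counts per library over the 30 livers. Mars2, the methionine enzyme (chr1:55237177-55248470), had 3.14 to 7.30 CPM in MCD IgG livers (median 5.46), against 4.08, 4.62, 2.38, 4.16 and 3.87 CPM in RCD IgG livers. It rose with a log2 fold change of 0.50 ± 0.19 (adjusted p = 0.0284), on 25 to 115 counts per library, whereas the cytosolic methionine gene Mars1 fell. Cars2, the cysteine enzyme (chr8:11513977-11550783), had 13.6 to 19 CPM in MCD IgG livers (median 15.1), against 15.3, 13, 12.6, 10.1 and 13.8 CPM in RCD IgG livers, with a log2 fold change of 0.27 ± 0.10 (adjusted p = 0.0347). It shares 984 bases on the opposite strand with Naxd. Both overlapped between the groups, and so did Pars2.

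**Figure D3:**
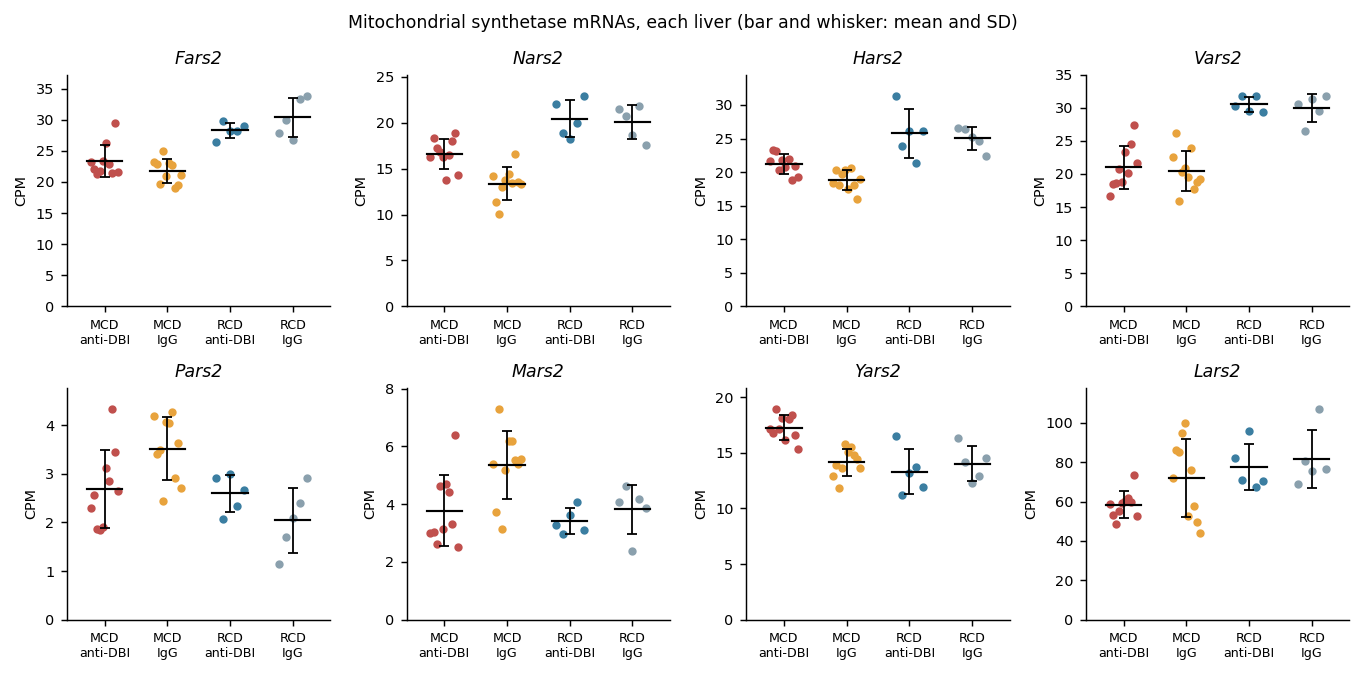
Level (CPM) of 8 mitochondrial synthetase mRNAs in each of the 30 livers, by group, with mean and SD. Fars2, Nars2, Hars2 and Vars2 were lower in every MCD IgG than in every RCD IgG liver, and Pars2 and Mars2 lay at a few CPM throughout.

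Of these 22 calls, 14 were kept under every other edgeR, DESeq2 and limma setting and without any 1 library, among them all 10 genes whose groups did not overlap. Among these settings, a block for the replicate number in effect compared only livers 1 to 5 of each group, because RCD IgG has no others. With this block 8 calls were lost, those of Eprs, Lars, Nars, Qars, Wars, Aars2, Cars2 and Mars2. The log2 fold changes of Eprs, Nars, Lars and Aars2 were then 0.30, 0.20, 0.14 and -0.19. Lars and Cars2 were also lost in the fit over all 30 libraries, and Qars and Aars2 under upper-quartile scaling. Leaving out 1 library ended the call of Qars (without RCD IgG 1, adjusted p = 0.0649), Wars (without RCD IgG 4 or RCD IgG 5, up to 0.0721), Mars2 (without RCD IgG 3 or RCD IgG 5, up to 0.0975) and Cars2 (without RCD IgG 2, 3 or 4 or MCD IgG 5, 6 or 10, up to 0.139).

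The action of anti-DBI in MCD-fed mice was measured by comparing MCD anti-DBI with MCD IgG livers, and so shares the MCD IgG livers with the comparison of diets. Of the 20 cytosolic genes 7 fell, 2 rose and 11 did not pass. Those that fell were Sars, Vars, Rars, Gars, Wars, Kars and Farsa, and those that rose were Tars and Dars. Of the 17 mitochondrial genes 3 fell (Mars2, Pars2, Lars2), 3 rose (Nars2, Yars2, Hars2) and 11 did not pass. In all, 42.1% of 13538 genes passed, 20.4% higher and 21.7% lower, so that 9 of 20 and 6 of 17 lie near the share of all genes. The median log2 fold change was -0.14 over the cytosolic, 0.01 over the mitochondrial and -0.02 over all genes tested. None of the 37 genes had groups that did not overlap, against 3.97% of all genes.

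Rars had 28.6 to 37.8 CPM in MCD anti-DBI livers (median 34.4), against 31.9 to 49.6 CPM in MCD IgG livers (median 44.5). Only MCD IgG 2 lay within the MCD anti-DBI range, and the log2 fold change was -0.38 ± 0.07 (adjusted p = 0.000202). Vars (chr17:35000987-35016322) had 39.7 to 52.2 CPM in MCD anti-DBI livers (median 45.5), against 47.8 to 73.2 CPM in MCD IgG livers (median 60.5), a log2 fold change of -0.38 ± 0.07 (adjusted p = 0.000208). Sars had 56.5 to 108 CPM in MCD anti-DBI livers (median 81.7), against 86.3 to 129 CPM in MCD IgG livers (median 109), a log2 fold change of -0.42 ± 0.09 (adjusted p = 0.000868).

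Gars had 55 to 80.5 CPM in MCD anti-DBI livers (median 70.0), against 65.1 to 101.7 CPM in MCD IgG livers (median 87.9), a log2 fold change of -0.36 ± 0.08 (adjusted p = 0.00106). Wars (chr12:108860030-108894174) had 16.7 to 22 CPM in MCD anti-DBI livers (median 19.5), against 18 to 29.7 CPM in MCD IgG livers (median 23.7), a log2 fold change of -0.34 ± 0.08 (adjusted p = 0.00206). Rars, Vars, Sars, Gars and Wars all overlapped between the groups. Wars is also known in human cells as a gene induced by interferon-γ. In an interferon list, 4 of 10 tested genes fell in this comparison and 0 rose, where 42.1% of all genes passed and 21.7% were lower. A part of interferon in the level of Wars was not tested. Kars and Farsa fell by 0.23 on the log2 scale each.

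Dars and Tars went the other way. Dars had 63.5 to 74.8 CPM in MCD anti-DBI livers (median 71.0), against 55.2 to 67.8 CPM in MCD IgG livers (median 63.2), with a log2 fold change of 0.15 ± 0.05 (adjusted p = 0.0174). Tars had 62.5 to 121 CPM in MCD anti-DBI livers (median 99.9), against 51.6 to 97.6 CPM in MCD IgG livers (median 69.1), with a log2 fold change of 0.37 ± 0.13 (adjusted p = 0.0260). The MCD anti-DBI livers were spread widely in Tars, with 4 of them near the MCD IgG median and 6 at or above its highest value. Mars1 had a log2 fold change of 0.18 and did not pass (adjusted p = 0.135).

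Among mitochondrial genes, Yars2, the tyrosine enzyme (chr16:16302965-16309640), had 15.3 to 19 CPM in MCD anti-DBI livers (median 17.2), against 11.8 to 15.8 CPM in MCD IgG livers (median 14.2). It rose with a log2 fold change of 0.26 ± 0.06 (adjusted p = 0.00136) and had a value of 0.03 in MCD IgG against RCD IgG (adjusted p = 0.789). Nars2 had 13.7 to 18.9 CPM in MCD anti-DBI livers (median 16.6), against 10.1 to 16.6 CPM in MCD IgG livers (median 13.5), a log2 fold change of 0.28 ± 0.08 (adjusted p = 0.00591). Mars2 had 2.53 to 6.40 CPM in MCD anti-DBI livers (median 3.22), against 3.14 to 7.30 CPM in MCD IgG livers (median 5.46), a log2 fold change of -0.53 ± 0.17 (adjusted p = 0.0142).

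Pars2 had 1.84 to 4.33 CPM in MCD anti-DBI livers (median 2.61), against 2.44 to 4.27 CPM in MCD IgG livers (median 3.56), a log2 fold change of -0.43 ± 0.16 (adjusted p = 0.0301). Hars2 had 18.8 to 23.3 CPM in MCD anti-DBI livers (median 21.2), against 16 to 20.6 CPM in MCD IgG livers (median 18.7), a log2 fold change of 0.15 ± 0.05 (adjusted p = 0.0372). Lars2, the leucine enzyme, had 48.8 to 73.7 CPM in MCD anti-DBI livers (median 59.1), against 43.9 to 100 CPM in MCD IgG livers (median 74.0). The MCD anti-DBI livers lay within the spread of the MCD IgG livers, and the log2 fold change of -0.32 ± 0.13 was at the threshold (adjusted p = 0.0469). That spread followed the liver numbers, with 72.03 to 100 CPM in MCD IgG 1 to 5 and 43.9 to 75.99 CPM in MCD IgG 6 to 10. Nars went the other way, with 96.22 to 158.8 CPM in MCD IgG 1 to 5 and 154.9 to 175.9 CPM in MCD IgG 6 to 10. A batch difference between these sets of livers was not tested.

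**Figure D4:**
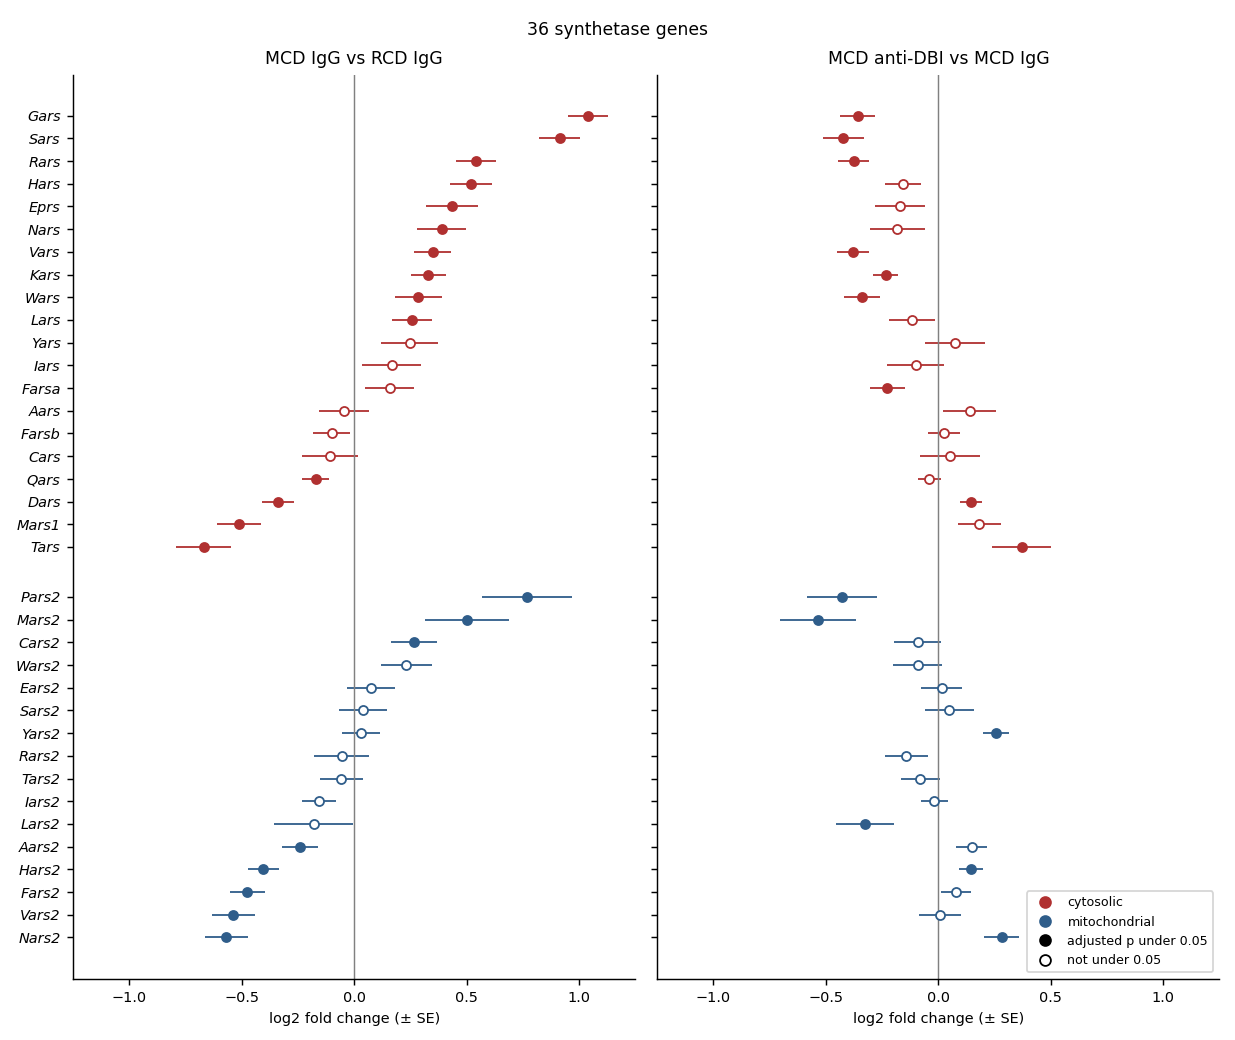
log2 fold change ± SE of 36 of the 37 synthetase genes in MCD IgG against RCD IgG (left) and MCD anti-DBI against MCD IgG (right), cytosolic genes above and mitochondrial genes below, with filled points for an adjusted p under 0.05. Both panels use the MCD IgG livers, so that their values are not independent of each other.

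Of the 15 calls, 9 were kept under every other edgeR, DESeq2 and limma setting and without any 1 library (Gars, Kars, Rars, Sars, Vars, Wars, Mars2, Nars2 and Yars2). Lars2 was kept only without MCD IgG 6, 8, 9 or 10 or MCD anti-DBI 9, of 20 libraries left out in turn, with adjusted p up to 0.108. Hars2 and Pars2 lost the call without 8 libraries each (up to 0.0696 and 0.0619), Farsa without MCD IgG 8 (0.0554) and Tars without MCD anti-DBI 3 (0.0529).

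Cell type markers moved in the same 2 comparisons. In MCD IgG against RCD IgG, 57.1% of all genes passed, 29.9% higher and 27.2% lower. In MCD anti-DBI against MCD IgG, 42.1% of all genes passed, 20.4% higher and 21.7% lower. In MCD IgG against RCD IgG, 7 of 8 macrophage markers rose and 3 of 6 hepatocyte markers fell, and in MCD anti-DBI against MCD IgG, 7 of 8 macrophage markers fell and 5 of 6 hepatocyte markers rose. Of 3 neutrophil markers tested all 3 rose in MCD IgG against RCD IgG and all 3 fell in MCD anti-DBI against MCD IgG, with median log2 fold changes of 3.04 and -0.78. Of 6 stellate cell markers 3 rose in MCD IgG against RCD IgG and 3 fell in MCD anti-DBI against MCD IgG (medians 0.51 and -0.33). Of 5 endothelial markers 4 fell in MCD IgG against RCD IgG (median -0.61), and 1 rose and 1 fell in MCD anti-DBI against MCD IgG. Among 5 Kupffer cell markers, 1 rose and 2 fell in MCD IgG against RCD IgG (median -0.35). Among 4 cholangiocyte markers 2 rose and 0 fell (median 0.70), and among 2 B cell markers tested 1 fell and 0 rose (median -0.84). None of these 3 lists had a gene that passed in MCD anti-DBI against MCD IgG. The summed macrophage markers ran from 65.1 to 756 CPM in MCD anti-DBI, from 163 to 1230 CPM in MCD IgG, from 39.4 to 69.3 CPM in RCD anti-DBI and from 37.3 to 52.1 CPM in RCD IgG. The summed hepatocyte markers ran from 117424 to 171919 CPM, from 71921 to 129010 CPM, from 81322 to 106559 CPM and from 100366 to 123008 CPM in these groups. T and NK cell markers stayed at 4.77 CPM or less in sum in every liver. The part of these cells in the synthetase levels was not tested, and in whole liver, fewer cells of a type and less RNA per cell cannot be told apart.

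Amino acid response genes gave a reference for size. Of an ATF4 list of 18 genes, all tested, 15 rose and 0 fell in MCD IgG against RCD IgG, and the median log2 fold change was 1.80. Of the 17 tested, 7 fell and 1 rose in MCD anti-DBI against MCD IgG, with a median of -0.54. In these comparisons 83.3% and 47.1% of the genes tested in the list passed. Of all genes 57.1% (29.9% higher) and 42.1% (21.7% lower) passed, with medians of 0.03 and -0.02. Asns, the asparagine synthetase, had mean levels of 52.5 CPM in MCD IgG and 1.75 CPM in RCD IgG livers, a log2 fold change of 4.85, and Nupr1, a stress-induced nuclear protein, had one of 5.75. The largest log2 fold change of a synthetase gene in that comparison, 1.04 in Gars, lay below the median of the ATF4 list. Atf4 itself, named here outside the rule and with its values known, rose with a log2 fold change of 0.40 (adjusted p = 0.0346).

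MCD-fed mice given the antibody were also set against the chow controls, MCD anti-DBI against RCD IgG, with the RCD IgG livers shared with the comparison of diets. Of the cytosolic genes 3 were higher (Gars, Sars, Hars) and 3 lower (Mars1, Qars, Dars), and of the mitochondrial genes 1 was higher (Yars2) and 6 lower (Vars2, Lars2, Fars2, Nars2, Hars2, Iars2). Of 13912 genes tested 36.5% passed, 18.4% higher and 18.1% lower. Gars was the only synthetase gene without overlap, a property shared by 14% of all genes, with 55 to 80.5 CPM in MCD anti-DBI livers and 37.7 to 45.7 CPM in RCD IgG livers. Its log2 fold change was 0.68 ± 0.09 (adjusted p = 2.31e-05).

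Hars had 33.2 to 50.3 CPM in MCD anti-DBI livers (median 44) and 29.5 to 34.1 CPM in RCD IgG livers, with a log2 fold change of 0.37 ± 0.08 (adjusted p = 0.00250). Sars had 56.5 to 108 CPM in MCD anti-DBI livers and 51.9 to 64.3 CPM in RCD IgG livers, with a log2 fold change of 0.49 ± 0.12 (adjusted p = 0.00275). Qars had 40.2 to 50.8 CPM in MCD anti-DBI livers (median 43.2) and 48.1 to 53.8 CPM in RCD IgG livers, with a log2 fold change of -0.21 ± 0.06 (adjusted p = 0.0126). All 3 overlapped between the groups. Vars2 had 16.7 to 27.4 CPM in MCD anti-DBI livers (median 20.4), against 30.6, 26.5, 31.4, 29.5 and 31.8 CPM in RCD IgG livers, a log2 fold change of -0.53 ± 0.10 (adjusted p = 0.000528). It had also been lower in MCD IgG, at 15.9 to 26.2 CPM, and its value in MCD anti-DBI against MCD IgG was 0.01 (adjusted p = 0.948). Lars2 had 48.8 to 73.7 CPM in MCD anti-DBI livers, against 69.0, 80.6, 75.6, 107 and 76.4 CPM in RCD IgG livers, a log2 fold change of -0.50 ± 0.10 (adjusted p = 0.000641). These mitochondrial genes overlapped between the groups. Fars2 had 21.3 to 29.5 CPM in MCD anti-DBI livers (median 22.5) and 26.8 to 33.9 CPM in RCD IgG livers, and Hars2 had 18.8 to 23.3 CPM and 22.4 to 26.5 CPM in these groups. Their log2 fold changes were -0.39 and -0.26 (adjusted p = 0.00132 and 0.00594), and those of Yars2 and Nars2 were 0.29 and -0.28. The calls of Dars (without RCD IgG 2, 4 or 5, adjusted p up to 0.123), Iars2 (without RCD IgG 2 or 4, up to 0.0624) and Mars1 (without RCD IgG 3, 0.0631) each depended on single livers.

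On regular chow, anti-DBI changed 1 of the 37 genes. Of 12699 genes tested 6.08% passed, 2.93% higher and 3.15% lower. Cars, the cysteine enzyme (chr7:143557230-143600090), had 46.2, 41.9, 35.5, 37.1 and 41.7 CPM in RCD anti-DBI livers, against 29.6, 27.8, 37.1, 29.1 and 32.9 CPM in RCD IgG livers. The groups overlapped through RCD IgG 3, and the log2 fold change was 0.37 ± 0.09 (adjusted p = 0.0292). The call was kept only without RCD IgG 3, RCD anti-DBI 3 or RCD anti-DBI 4, of 10 libraries left out in turn, and was lost in the fit over all 30 libraries. At an unadjusted p under 0.05, edgeR found 3 cytosolic genes and 0 mitochondrial genes, and DESeq2 called 0 mitochondrial genes after adjustment. Of 5 Kupffer cell markers 3 rose in the same comparison, with summed levels of 278 to 433 CPM in RCD anti-DBI and 228 to 310 CPM in RCD IgG livers, and their part in the level of Cars was not tested.

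Whether the antibody acted differently on the 2 diets was tested as an interaction over all 30 livers, the log2 fold change of anti-DBI over IgG on MCD minus that on RCD. It passed for 5 of the 37 genes, 4 cytosolic and 1 mitochondrial, where 19.2% of 14335 genes passed, 10.6% with a positive and 8.63% with a negative difference. Rars had a difference of -0.49 ± 0.12 (adjusted p = 0.00612), from 28.6 to 37.8 CPM in MCD anti-DBI and 31.9 to 49.6 CPM in MCD IgG, against 39.5, 29.7, 30.5, 28.1 and 34.8 CPM in RCD anti-DBI and 34.5, 28.5, 27.3, 29.2 and 30.4 CPM in RCD IgG. Wars had a difference of -0.47 ± 0.13 (adjusted p = 0.0105), with 21.3, 22.2, 23.1, 23.2 and 19 CPM in RCD anti-DBI and 20.4, 20.6, 20.2, 18.5 and 19.5 CPM in RCD IgG. Both genes had lower medians with anti-DBI on MCD and higher medians with anti-DBI on RCD.

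Sars had a difference of -0.41 ± 0.14 (adjusted p = 0.0421), and its levels on chow were 62.3, 58.8, 54.2, 56.3 and 55 CPM in RCD anti-DBI and 52.1, 51.9, 64.3, 60.7 and 59.1 CPM in RCD IgG. Dars had a difference of 0.33 ± 0.09 (adjusted p = 0.0103), with 79.4, 65.9, 68.4, 66.5 and 74.0 CPM in RCD anti-DBI and 70.7, 91.4, 69.4, 81.7 and 85.5 CPM in RCD IgG. Yars2 had a difference of 0.33 ± 0.12 (adjusted p = 0.0395), with 16.5, 11.2, 13.2, 13.8 and 12 CPM in RCD anti-DBI and 16.3, 14.1, 12.3, 12.9 and 14.5 CPM in RCD IgG. On RCD the groups overlapped in all 5 genes. The interactions of Rars, Wars and Dars were kept under every setting and without any 1 library, whereas that of Sars was lost without any 1 of 17 libraries (adjusted p up to 0.0889) and that of Yars2 without any 1 of 12 (up to 0.0995).

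**Figure D5:**
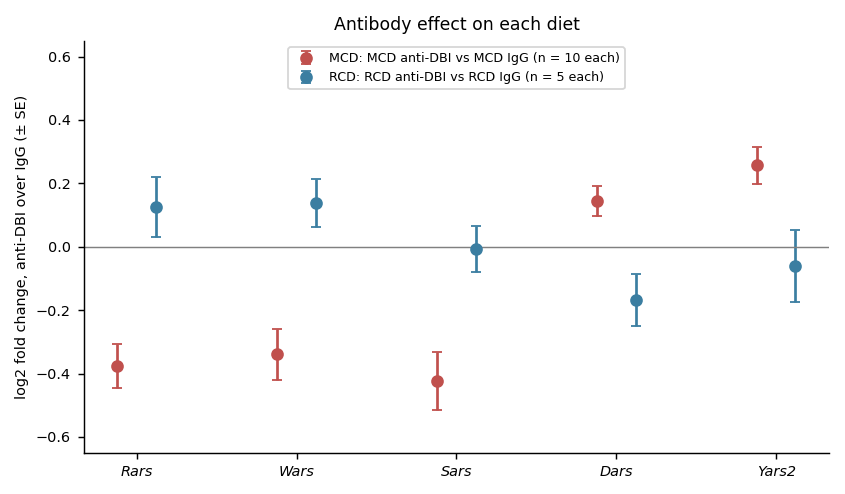
Antibody effect, as log2 fold change of anti-DBI over IgG ± SE, on MCD (n = 10 per group) and on RCD (n = 5 per group) for the 5 genes whose interaction of antibody and diet passed. Rars, Wars and Sars lie below 0 on MCD, and Dars and Yars2 above 0.

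Genes that act next to the synthetases were listed for comparison. Of 7 tested genes for tRNA export, editing and related enzymes, 3 fell and 0 rose in MCD IgG against RCD IgG, and 3 rose and 0 fell in MCD anti-DBI against MCD IgG. Both counts were made of Tarsl2, Sepsecs and Dtd2. Each count is 42.9% of the genes tested, where 57.1% and 42.1% of all genes passed in these comparisons. Tarsl2, a second cytosolic threonine enzyme whose symbol lies outside the naming used here, averaged 16 CPM in MCD anti-DBI, 11.5 CPM in MCD IgG, 14.6 CPM in RCD anti-DBI and 18.8 CPM in RCD IgG. Its log2 fold change was -0.70 in MCD IgG against RCD IgG and 0.45 in MCD anti-DBI against MCD IgG, and that of Tars was -0.67 and 0.37. Sepsecs, which makes selenocysteinyl-tRNA, had -0.39 and 0.31 in these comparisons. On chow, 2 of the 7 tested genes of this list fell with anti-DBI and 0 rose. Of all genes 6.08% passed there, and 3.15% were lower. Xpot, the tRNA exportin, was among those that fell, at 104 CPM in RCD anti-DBI and 141 CPM in RCD IgG on average (log2 fold change -0.44, edgeR's adjusted p = 0.0023).

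Of 12 mitochondrial charging and translation factors, 2 fell and 1 rose in MCD IgG against RCD IgG. Those that fell were Mtif2, an initiation factor (log2 fold change -0.48), and Gfm2, a ribosome recycling factor (-0.39), and the one that rose was Gfm1, an elongation factor (0.21). In MCD anti-DBI against MCD IgG, Mtif2 (0.33) and Gfm2 (0.26) rose and Tufm, the mitochondrial elongation factor Tu, fell (-0.24). Of 5 cytosolic elongation factors, Eef1b2 (0.43), Eef1g (0.20) and Eef1d (0.18) rose in MCD IgG against RCD IgG, and Eef1g fell (-0.26) in MCD anti-DBI against MCD IgG. In these comparisons 57.1% and 42.1% of all genes passed. The shares were 25% in both for the mitochondrial factors, and 60% and 20% for the elongation factors.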

How the data were processed

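Liver RNAseq libraries (30, 1 per mouse) were grouped by their labels. The authors deposited whole-number counts per gene and a signal, the counts divided by DESeq2's size factors. Only the counts were tested, after checking that the 2 differ by 1 factor per library. The table's header names STAR, featureCounts and Ensembl release 102 on GRCm38, and the methods name HISAT2 and GRCm39. Whether strand was used in counting is not given in the sources used here. The authors' own comparisons were not used. Some single values are not reported here.

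Genes were kept by filterByExpr, scaled by TMM and tested with edgeR 4.0.16 (glmQLFit, glmQLFTest) in R 4.3.3, with Benjamini-Hochberg adjustment over all genes tested and a threshold of 0.05. Pairwise fits used the libraries of the 2 groups. An SE is the log2 fold change divided by the square root of F. The test was tried on simulated counts. Alternatives were DESeq2 1.42.0, limma 3.58.1 on log2(CPM + 1), other scalings and filters, 1 fit over all libraries, a replicate block, each library left out, and the Kruskal-Wallis and Dunn tests. The p values measure the spread between mice. Promoters are RefSeq's, and coding lengths are of GENCODE vM39 canonical transcripts.

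Members and gene lists were chosen with earlier results of these data known. Per-liver values are given for the 5 cytosolic and 3 mitochondrial genes with the smallest adjusted p in each MCD comparison, those against their compartment's majority, and those that passed elsewhere (up to 4 per compartment).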

Additional observations from a re-analysis of the deposited data

Results flagged for a closer look

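In 4 of 144 sets of 1 gene in 1 group, a single liver lay farther from its group than Dixon's 95% critical value allows, and chance alone gives about 1 in 20. Aars was 391 CPM in MCD anti-DBI 8, where the other livers of that group had 202 to 298 CPM. Rars was 31.9 CPM in MCD IgG 2 (others 40.5 to 49.6 CPM), the liver that was lowest of its group in 18 of 20 cytosolic genes. Farsb was 34.5 CPM in RCD anti-DBI 1 (others 28.9 to 30.5 CPM), the liver that was highest of its group in 14 of 20 cytosolic genes. Lars2 was 73.7 CPM in MCD anti-DBI 9 (others 48.8 to 61.8 CPM).

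The effect of anti-DBI on MCD minus that on RCD, in log2 fold change, passed edgeR's test of the interaction for 5 genes. It was -0.49 for Rars, -0.47 for Wars, -0.41 for Sars, 0.33 for Dars and 0.33 for Yars2.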

How the results depend on the processing

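No call of a synthetase gene changed its sign in the alternatives run. Of the 22, 15, 13 and 1 calls in MCD IgG against RCD IgG, MCD anti-DBI against MCD IgG, MCD anti-DBI against RCD IgG and RCD anti-DBI against RCD IgG, 14, 9, 9 and 0 were kept in all edgeR, DESeq2 and limma settings and without each library, and of the 5 interactions 3. The counts that moved by over 1.5 times were these. With the replicate block, 9 of 20 cytosolic and 5 of 17 mitochondrial genes passed in MCD IgG against RCD IgG (14 and 8 without it), 0 cytosolic genes in RCD anti-DBI against RCD IgG (1) and 0 mitochondrial genes in the interaction (1). The numbers 6 to 10 occur only on MCD. Against RCD IgG, the block therefore in effect compared only livers 1 to 5 of each group. It lost 8 calls and gained 0 in MCD IgG against RCD IgG. In MCD anti-DBI against RCD IgG it lost 2 (Dars, Hars2) and gained 5 (Eprs, Nars, Rars, Yars, Tars2). The part of fewer livers in these changes was not tested. Livers with 1 number shared only that number: their deviations from the group means correlated between -0.22 and 0.18. By the Kruskal-Wallis and Dunn tests, with Bonferroni adjustment within each gene only, cytosolic and mitochondrial counts were 8 and 7 in MCD IgG against RCD IgG, 4 and 1 in MCD anti-DBI against MCD IgG, 0 and 3 in MCD anti-DBI against RCD IgG, and 0 and 0 in RCD anti-DBI against RCD IgG. All libraries in 1 fit gave 0 cytosolic genes in that last comparison. Without a filter, 3 mitochondrial genes passed in MCD anti-DBI against MCD IgG. In the interaction, upper-quartile scaling gave 7 cytosolic genes, and 0 mitochondrial genes passed without a filter or with at least 10 counts in every library, against 2 with DESeq2 or limma. Leaving out 1 library gave 0 to 1 cytosolic genes in RCD anti-DBI against RCD IgG, 3 to 6 mitochondrial genes in MCD anti-DBI against MCD IgG and 0 to 2 mitochondrial genes in the interaction. Without MCD IgG 2, 15 cytosolic genes passed in MCD IgG against RCD IgG and 10 in MCD anti-DBI against MCD IgG, and the interaction passed for 6. MCD anti-DBI 5 and 10 had summed cytosolic levels of 1280 and 1278 CPM and summed mitochondrial levels of 352 and 335 CPM. The labels number them as separate replicates, and whether they are independent livers was not tested. Summing these 2 libraries ended the call of Lars2 only. Upper-quartile scaling moved the median of all genes by at most 0.08 (log2). Depth limits Pars2 and Mars2 most, with as few as 9 and 25 counts in a library.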
